A study of Mus musculus with 4 samples.

Results

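The natriuretic peptide system was described in whole lung of sickle cell disease mice through 7 genes: the ligand genes Nppa, Nppb and Nppc, the receptor genes Npr1, Npr2 and Npr3, and the protease gene Corin. Members were chosen by gene name, taking for each gene the Affymetrix probe set annotated to it alone, and all 7 of 7 were measured among 30702 genes; each had 1 such probe set. The arrays came from adult, age-matched mice, 2 from wild-type (WT) animals of the C57/BL6 strain and 2 from animals given the strain label SCD Tg, here called SCD. No treatment or time course is named in the labels. The labels name neither the transgenic line behind SCD nor its background strain, sex or batch, so that the sickle genotype and the background it was bred on cannot be told apart. The tissue label was borne out by the markers of lung alveolar epithelium: all 10 lay above the median of the array's intron control probe sets, and none passed the test between groups (limma; 0 higher and 1 lower at an unadjusted p under 0.05).

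Natriuretic peptides are hormones that lower blood pressure and blood volume. Atrial natriuretic peptide, the product of Nppa, is made mainly by atrial heart muscle as a precursor, which the membrane protease corin cuts to the active form; brain natriuretic peptide, from Nppb, comes mainly from stretched heart muscle, and C-type natriuretic peptide, from Nppc, acts locally in vessels and growing bone. The receptors encoded by Npr1 and Npr2 are guanylyl cyclases that make cyclic GMP (cGMP), Npr1 for the atrial and brain peptides and Npr2 for the C-type peptide, whereas the receptor encoded by Npr3 has no cyclase domain and clears the peptides from the circulation. In the lung, Npr1 signalling relaxes vascular smooth muscle and acts on endothelium, and in mice a sleeve of heart muscle continues along the pulmonary veins into the lung.

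Nppa and Nppb lie next to each other on mouse chromosome 4, with no other measured gene between them. The 250 bases before the annotated start of Nppa are shown because Nppa carries the main difference of the system and its promoter is well studied in heart. In the RefSeq sequence of build GRCm38.p6, plus strand, at chr4:148000472-148000721, capitals mark, from 5′ to 3′, a T-box match, an NKX2 match, a GATA match and a TATA box match.

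Nppa: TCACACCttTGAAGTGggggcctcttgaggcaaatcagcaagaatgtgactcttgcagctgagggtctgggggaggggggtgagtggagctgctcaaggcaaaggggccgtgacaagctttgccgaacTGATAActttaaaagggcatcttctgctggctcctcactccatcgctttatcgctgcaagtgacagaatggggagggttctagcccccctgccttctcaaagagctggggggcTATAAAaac

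The stretch of Nppb at chr4:147985794-147985821 on the plus strand, shown for comparison, holds a TEAD match and a pair of GATA matches in capitals.

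Nppb: aGGAATGcagcTGATAAatcagAGATAA

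Every motif was searched on both strands. The letters TATAAA stood for the TATA box. For the binding motif of GATA factors, any of 4 spellings counted, of which the common one is TGATAA while its first base could also be adenine and its last base guanine. The NKX2 motif was spelled TNAAGTG, where N is any base. For T-box factors the spelling was GGTGTGA, which the Nppa window holds on its minus strand, and for TEAD factors it was CATTCC, which the Nppb window holds on its minus strand. None of the printed matches overlapped another. Of 32851 promoter windows of the same length, 12.4% held the TATA box, 26.5% GATA, 10.1% NKX2, 3.33% T-box and 12.6% TEAD letters. GATA, NKX2 and T-box letters occurred together, as in Nppa, in 53 windows (0.161%). Because the motifs were chosen with earlier results known, this share is no test. The T-box match also begins at the first base of the Nppa window, so that a shorter window would not hold it. Among the windows of the other members, that of Nppb also held a TATA box, that of Nppc held a TATA box alone, and those of Npr1, Npr2, Npr3 and Corin held none of these letters. A match describes the letters and is no evidence that a factor binds there in lung.

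Nppa expression was higher in SCD lung. On the deposited log2 scale, its value was 6.82 and 7.01 in the WT lungs and 9.90 and 9.68 in the SCD lungs. Both SCD arrays lay far above both WT arrays, and the replicates of each group lay close together. The group means were 6.91 ± 0.14 in WT and 9.79 ± 0.16 in SCD (SD, n = 2 arrays each), a difference of 2.88 ± 0.13 (SE), or 7.35-fold (95% interval of 2.54 to 3.21 on the log2 scale; limma adjusted p = 0.0033 over all 30702 genes). This was the increase ranked 16 among all genes. The intron controls give a yardstick for unspecific signal: Nppa exceeded 56.4% and 59.8% of them in WT, but 91.9% and 91.4% in SCD. Its WT mean lay 0.44 above the median of these controls, and its SCD mean 3.50 above. This yardstick is high: the median of all genes, 5.88 in WT and 5.89 in SCD arrays, lay below the intron control medians of 6.48 and 6.29. A value below those medians is thus common and no sign by itself that a gene is absent. The array's antigenomic background probe sets had medians of 3.32 in WT and 3.37 in SCD arrays. In whole lung, more cells of a type and more RNA per cell cannot be told apart, for Nppa or for the genes described after it. Without SCD replicate 1 the difference was 2.77 with an adjusted p of 0.0715, and without SCD replicate 2 it was 2.99 with an adjusted p of 0.0692; in either case limma called 0 genes in all (3306 and 3270 had an unadjusted p under 0.05). When WT replicate 1 or WT replicate 2 was left out, Nppa still passed (adjusted p of 0.0224 and 0.0173).

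**Figure D1:**
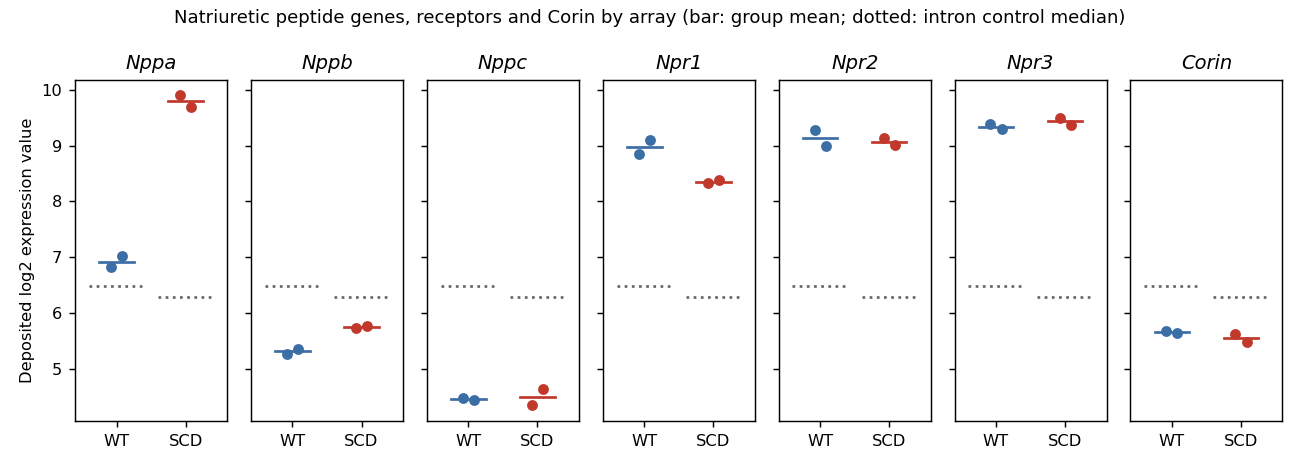
Deposited log2 expression value (y axis) of each of the 7 genes on each array, with WT in blue and SCD in red; points are arrays, bars are group means and dotted lines the intron control medians of each group. Nppa stands at 6.82 and 7.01 in WT and at 9.90 and 9.68 in SCD, whereas Nppb, Nppc and Corin stay below the intron control medians; levels of different genes come from different probes and are not to be set against each other.

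Of the 7 genes, 1 passed the test as higher and 0 as lower, and 6 did not pass. Over all genes, 757 were called higher (2.47%) and 195 lower (0.635%). At an unadjusted p under 0.05, 2 of the 7 were higher (Nppa and Nppb) and 1 lower (Npr1). Both SCD arrays lay above both WT arrays for 2 of the 7 genes, against 25.3% of all genes, and below them for 2, Npr1 and Corin, against 22.5% of all genes. The median difference over the 7 genes was 0.03, beside 0.00196 over all genes. No label says that the arrays come from separate litters or extractions, so the p-values measure only the spread between these samples, and an exact permutation of 2 against 2 arrays cannot give a two-sided p below 0.333.

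The other ligand genes were dim. Nppb, the brain natriuretic peptide gene, was at 5.26 and 5.36 in WT and at 5.72 and 5.76 in SCD lung. The groups did not overlap, but all 4 values lay below the intron control medians (6.48 in WT and 6.29 in SCD arrays), and the difference of 0.43 ± 0.11 did not pass (limma adjusted p = 0.144; 95% interval of 0.15 to 0.72). Nppc, the C-type peptide gene, was at 4.47 and 4.44 in WT and at 4.34 and 4.64 in SCD. Its SCD arrays fell on either side of the WT arrays, and the difference was 0.03 ± 0.15 (adjusted p = 0.95; interval from -0.35 to 0.41). Nppc exceeded only 15.8% to 20.7% of intron controls on the 4 arrays. Whether Nppa and Nppb differed in their response was not tested.

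**Figure D2:**
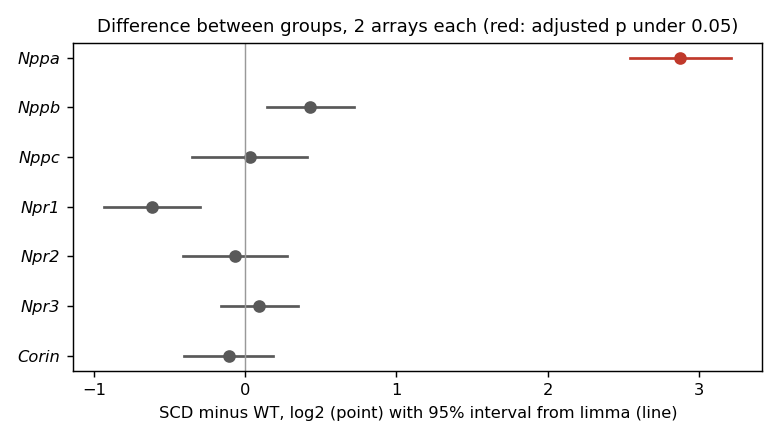
Difference SCD minus WT on the log2 scale (x axis) for each gene, with the 95% interval from limma, 2 arrays per group; red marks an adjusted p under 0.05. Nppa stands at 2.88, and the intervals of Nppc, Npr2, Npr3 and Corin include 0 while those of Nppb and Npr1 do not, although neither passed over all genes.

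Among the receptor genes, Npr1 had the largest difference and it did not pass. Npr1, which encodes the cyclase receptor of the atrial and brain peptides, was at 8.84 and 9.10 in WT and at 8.32 and 8.39 in SCD lung. Both SCD arrays lay below both WT arrays. The difference was -0.61 ± 0.12, or 1.53-fold lower in SCD (95% interval from -0.93 to -0.30; limma adjusted p = 0.083). Npr1 did pass with repeated quantile normalization (-0.71; adjusted p = 0.0454), with cyclic loess (-0.66; adjusted p = 0.0499) and after subtracting the exon control shift from the SCD arrays (-0.81; adjusted p = 0.0418). In these settings the lower calls over all genes also rose, from 195 to 347, 292 and 573. In 12 of the 15 settings Npr1 did not pass, among them equal array medians (limma adjusted p = 0.0959) and no intensity trend (0.115). Npr1 was well measured, exceeding 80.4% to 85.0% of intron controls on the 4 arrays.

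Npr2, the cyclase receptor of the C-type peptide, was at 9.28 and 8.99 in WT and at 9.13 and 9.005 in SCD, so that both SCD arrays lay within the WT range. Its difference was -0.07 ± 0.13 (adjusted p = 0.862; interval from -0.41 to 0.27). Npr3, the clearance receptor gene, was at 9.38 and 9.30 in WT and at 9.50 and 9.37 in SCD. The groups overlapped, with a difference of 0.09 ± 0.10 (adjusted p = 0.717; interval from -0.16 to 0.35). These intervals leave room for changes of Npr2 or Npr3 of up to about the size of 0.4 on the log2 scale. Corin, which activates the Nppa precursor in heart, was at 5.68 and 5.63 in WT and at 5.61 and 5.48 in SCD. All 4 Corin values lay below the intron control medians, and its difference of -0.11 ± 0.11 did not pass (adjusted p = 0.712).

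The genes next to the ligand pair were examined as well. Before Nppb in the RefSeq order lie Mfn2, which encodes a protein of mitochondrial fusion (0.12 ± 0.10), the collagen-modifying enzyme gene Plod1 (0.22 ± 0.10) and 2510039O18Rik (0.13 ± 0.13). After Nppa lie the chloride transporter gene Clcn6 (0.00 ± 0.13), Gm13207 (-0.56 ± 0.10; adjusted p = 0.068) and Gm13201 (0.02 ± 0.14). None of these 6 neighbours passed in limma (0 higher and 1, Gm13207, lower at an unadjusted p under 0.05), and none had a difference near the 2.88 of Nppa.

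Because Nppa is a gene of heart muscle, markers of heart muscle were set beside it. Among 40 measured marker genes of cardiac, atrial or pulmonary vein, and ventricular myocytes, 4 rose, 0 fell and the rest did not pass, a share of 10% called higher against 2.47% of all genes. Their median difference was 0.16, beside 0.00196 over all genes, and 33 had a positive difference. Both SCD arrays lay above both WT arrays for 20 of the 40, against 25.3% of all genes. The shares over all genes take in many dim genes, whereas most of the 40 lay above the intron control medians. With the dimmest 50% of genes left out, 1038 genes were called higher, against 757 over all genes. The shares thus do not compare genes of like brightness. None of the 40 reached the difference of Nppa. Myl7, the atrial myosin light chain gene, rose most, from 12.78 and 12.94 to 13.97 and 14.15 (1.20 ± 0.10; limma adjusted p = 0.0086). Csrp3, a gene of the muscle Z-disc, rose by 0.69 ± 0.10, Smpx, a small muscle protein gene, by 0.76 ± 0.11, and Cox8b, a muscle form of a respiratory chain subunit, by 0.83 ± 0.13. These 3 calls were less stable than that of Myl7, which passed in 13 of the 15 alternative settings: Csrp3 passed in 6, Smpx in 8 and Cox8b in 6. Of the 4 genes, only Myl7 passed after the exon control shift was subtracted (adjusted p = 0.0159, against 0.0663 for Csrp3, 0.0635 for Smpx and 0.0732 for Cox8b).

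The atrial and pulmonary vein list as a whole showed 1 of 12 genes higher (Myl7), 0 lower and 11 not passing, with a median of 0.10. Its summed signal, as log2 of the summed linear values, was 13.28 to 13.44 in WT and 14.24 to 14.41 in SCD arrays. That sum mostly restates Myl7, which supplied 70.7% of it on both WT arrays and, in SCD, 82.8% and 83.9%; without Myl7, left out after its values were seen, the sum was 11.51 to 11.68 in WT and 11.70 to 11.77 in SCD. The atrial light chain gene Myl4 (0.43 ± 0.10), the calcium pump regulator gene Sln (0.33 ± 0.14) and Clic6 (0.80 ± 0.22) did not pass. The list was not of one direction. Both SCD arrays lay above both WT arrays for 5 of its 12 genes, against 25.3% of all genes. They lay below for 3 of the 12, against 22.5% of all genes. Those 3 were the ion channel genes Kcnj3 (-0.31 ± 0.16) and Kcna5 (-0.10 ± 0.10) and the gap junction gene Gja5 (-0.26 ± 0.11), which did not pass either. Bmp10 and Kcnj3 lay below the intron control medians in both groups. In the list of general cardiac myocyte genes, 3 of 23 rose, 0 fell and 20 did not pass, with a median of 0.23 and a summed signal of 13.25 to 13.57 in WT and 13.81 to 13.87 in SCD arrays. That sum leans on its brightest gene, Tnnt2, which did not pass (12.67 and 12.18 in WT, 12.92 and 12.82 in SCD). Hspb7 (0.66 ± 0.12), Pln, the calcium pump inhibitor gene (0.58 ± 0.11), and the troponin gene Tnnc1 (0.50 ± 0.25) did not pass. Mybpc3, Ldb3, Nkx2-5, Tbx20 and Gata4 of that list lay below the intron control medians in both groups. None of 5 ventricular genes passed (0 at an unadjusted p under 0.05), with Myl2, the ventricular light chain gene, at -0.19 ± 0.12 and below the intron control medians like Irx4 and Hey2; their summed signal was 7.93 on both WT arrays and 7.85 to 8.05 in SCD. None of 13 skeletal muscle genes passed either (0 higher and 1 lower at an unadjusted p under 0.05), and 12 of them lay below the intron control medians. The part that heart muscle content has in the difference of Nppa was not tested.

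**Figure D3:**
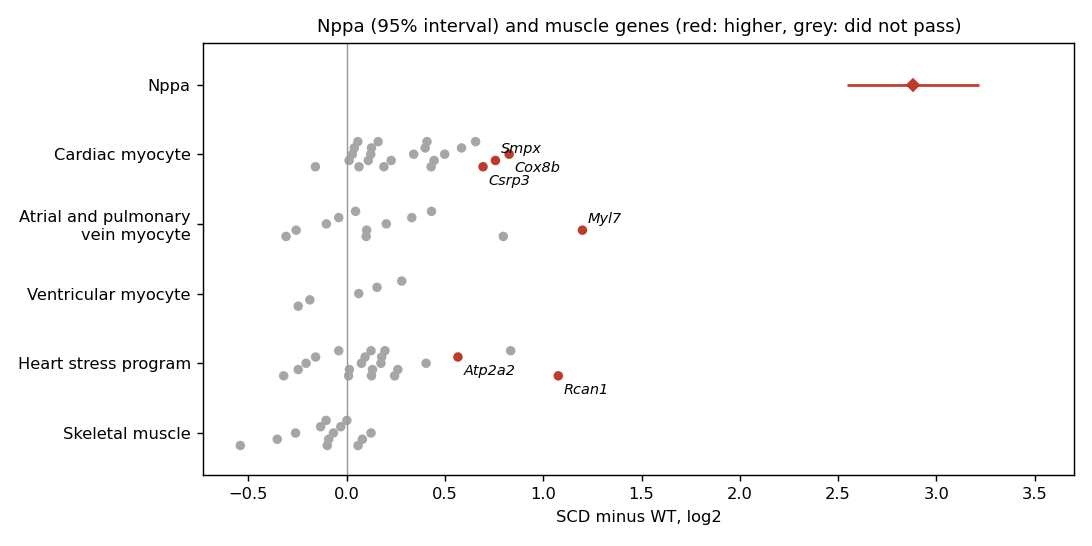
Difference SCD minus WT on the log2 scale (x axis) for Nppa with its 95% interval and, in rows, for the genes of 4 heart lists and 1 skeletal muscle list, each point 1 gene. Genes that rose are red and named; Nppa stands at 2.88, and Myl7, at 1.20, is the highest of the marker genes.

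Of 21 other genes of the fetal or stress program of heart, 2 rose, 0 fell and 19 did not pass, with a median of 0.13. The share called was 9.52%, against 3.10% of all genes. Rcan1, a calcineurin inhibitor gene, rose by 1.08 ± 0.12 (from 9.39 on both WT arrays to 10.60 and 10.34; adjusted p = 0.0164), and Atp2a2, the calcium pump gene of the sarcoplasmic reticulum, by 0.57 ± 0.06 (adjusted p = 0.0191); both genes are also expressed outside the heart. The call of Atp2a2 held in 8 of the 15 settings, and with quantile normalization repeated its difference was 0.24 (adjusted p = 0.253). Mybphl, an atrial myosin-binding protein gene, did not pass (0.83 ± 0.14; adjusted p = 0.0579), nor did Nebl (0.40 ± 0.09). Of 20 transcription factor genes known to act at Nppa or Nppb in heart, none passed (limma; 0 higher and 2 lower at an unadjusted p under 0.05). Mef2c was at -0.45 ± 0.10, Tbx3 at 0.36 ± 0.15 and Hand2 at -0.38 ± 0.13, and 11 of the 20 lay below the intron control medians.

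The genes nearest to Nppa by the likeness of their values over the 4 arrays were also listed. Likeness was the root mean square distance between profiles centred on their own mean, over 20097 named genes. The closest was the chemokine gene Ccl8 (distance of 0.037), at 6.17 and 6.33 in WT and at 9.18 and 8.94 in SCD lung. The other genes among the 10 nearest were the minor globin gene Hbq1a (0.124), Lcn2 (0.156), Reg3g (0.185), Cyp2a4 (0.187) and 5 immunoglobulin genes, Ighg2b (0.130) among them. Their differences ranged from 2.57 to 3.01. With 4 arrays in 2 groups, such a likeness says little more than that the differences between groups were of like size. None of the 10 was in a heart list, but that was fixed beforehand. The largest difference of a heart marker gene was 1.20 (Myl7), too far from that of Nppa.

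A list of genes of peptide processing, activation and clearance held calls in both directions. Of 20 measured, 1 rose, 2 fell and 17 did not pass, with a median of 0.000392. The share called was 15%, against 3.10% of all genes. Mme, which encodes neprilysin, the main peptidase that degrades the atrial peptide, was at 11.96 and 12.09 in WT and at 11.49 and 11.51 in SCD lung. It fell by 0.52 ± 0.08 (limma adjusted p = 0.0487), close to the threshold. Dpp4, a peptidase that trims the brain peptide, fell by 0.91 ± 0.12 (adjusted p = 0.0288), and Tmprss2, a membrane serine protease of the same broad class as corin, rose by 0.71 ± 0.10 (adjusted p = 0.0391). The convertase gene Furin, whose product cuts the brain and C-type precursors, was at 0.11 ± 0.11 and Pcsk6, whose product activates corin, at -0.06 ± 0.12. The peptidase gene Ide (0.35 ± 0.12), Ece1 (-0.41 ± 0.10) and Pcsk5 (-0.37 ± 0.10) did not pass. Ostn, the gene of a hormone that occupies the clearance receptor, lay near the bottom of the scale (4.34 and 4.49 in WT, 4.65 and 4.48 in SCD; 0.15 ± 0.14). Mme passed in 6 of the 15 alternative settings, Tmprss2 in 6 and Dpp4 in 9.

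Downstream of the receptors, cGMP acts on protein kinase G and is broken down by phosphodiesterases. Of 35 measured cGMP effector and phosphodiesterase genes, 34 did not pass, 1 rose and 0 fell, and the median was -0.03. At 2.86%, the share called was near the background of 3.10% of all genes called in either direction. Pde9a, whose product breaks down cGMP made in response to natriuretic peptides in heart, was at 8.06 and 8.07 in WT and at 8.76 and 8.79 in SCD lung, a rise of 0.71 ± 0.09 (limma adjusted p = 0.0279) that passed in 8 of the 15 settings. Pde5a, the target of sildenafil, was at 11.91 and 12.00 in WT and at 11.47 and 11.59 in SCD. Its groups did not overlap, but the difference of -0.42 ± 0.09 did not pass (adjusted p = 0.0919), nor did those of Pde3a, a cGMP-inhibited phosphodiesterase (-0.57 ± 0.12), Kcnmb1, a subunit of the potassium channel that protein kinase G opens (0.80 ± 0.13; adjusted p = 0.054), and Rgs2, a kinase target (0.47 ± 0.10). Prkg1, the gene of protein kinase G in smooth muscle, was at -0.09 ± 0.12.

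**Figure D4:**
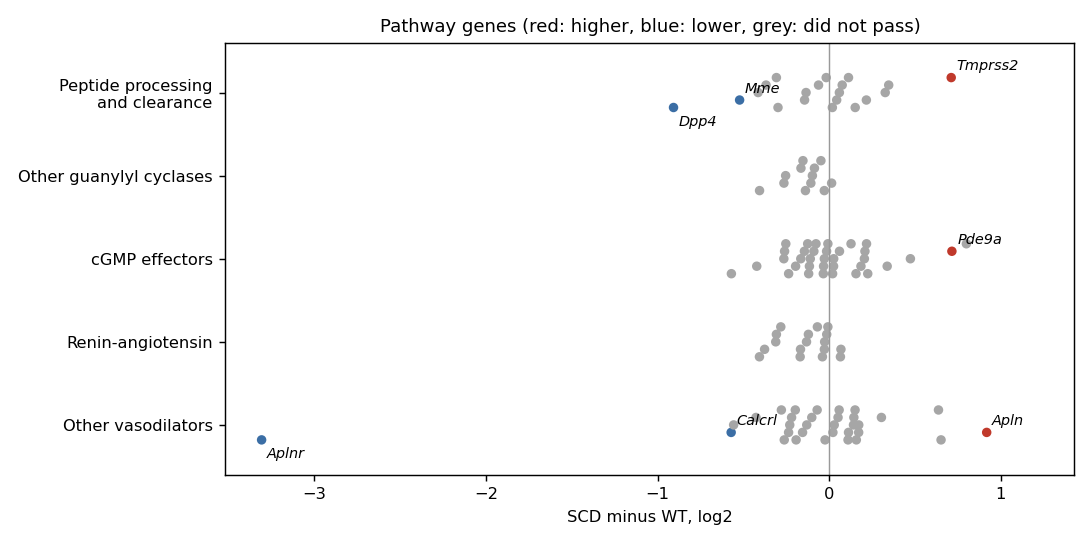
Difference SCD minus WT on the log2 scale (x axis) for the genes of 5 pathway lists in rows, each point 1 gene; genes that rose are red, genes that fell blue, both named, and grey genes did not pass. Mme and Dpp4 stand below 0 and Tmprss2 and Pde9a above it, and the row of other vasodilators holds Aplnr at -3.31.

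The other guanylyl cyclases showed no change that passed. Of 12 measured genes of soluble and membrane cyclases and their ligands, none passed (0 at an unadjusted p under 0.05), 1 had a positive difference, and 10 lay below the intron control medians in both groups. The median was -0.12. Gucy1b1, the beta subunit gene of the nitric oxide receptor cyclase, was at -0.25 ± 0.10, Gucy1a2 at -0.26 ± 0.13 and Guca2b at -0.41 ± 0.17. The probe set of the alpha subunit gene Gucy1a1 is shared with the microRNA gene Mir7010 and gave -0.09 ± 0.10 in the fit over every transcript cluster.

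Among systems that oppose or accompany natriuretic peptides, none of 17 genes of the renin-angiotensin system, aldosterone and vasopressin passed (limma; 0 higher and 3 lower at an unadjusted p under 0.05), with a median of -0.12. Hsd11b1 (-0.38 ± 0.09), the aminopeptidase gene Enpep (-0.31 ± 0.09) and the angiotensin receptor gene Agtr1b (-0.41 ± 0.30) had the largest differences. Agtr1b was among 10 of the 17 genes whose means lay below the intron control medians in both groups. Its WT arrays also lay apart, at 6.36 and 5.46. Of 32 genes of other vasodilator peptides and their receptors, 1 rose, 2 fell and 29 did not pass, with a median of -0.0013. The share called was 9.4%, against 3.10% of all genes. The apelin gene Apln rose by 0.92 ± 0.09 and its receptor gene Aplnr fell by 3.31 ± 0.21, while Calcrl, the receptor of adrenomedullin, fell by 0.57 ± 0.06 (adjusted p = 0.0153). Adrenomedullin itself, Adm, was at -0.56 ± 0.12, the neurokinin receptor gene Tacr1 at 0.65 ± 0.18 and the bradykinin receptor gene Bdkrb2 at 0.64 ± 0.17, none of which passed. Adm, Tacr1 and Bdkrb2 were among 26 of the 32 genes whose means lay below the intron control medians in both groups.

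Npr1 is known in endothelium and smooth muscle, and markers of both were examined, most of which did not pass. The 13 endothelial genes held 1 that rose, 2 that fell and 10 that did not pass (23.1% called, against 3.10% of all genes). Their median was -0.20, none lay below the intron control medians, and their summed signal was 16.01 to 16.18 in WT and 15.87 to 15.94 in SCD arrays. The brightest gene, Cdh5, weighs most in that sum (15.24 and 15.39 in WT, 14.83 and 14.86 in SCD). The angiopoietin receptor gene Tek fell by 1.94 ± 0.08 and the junction gene Cdh5 by 0.47 ± 0.08, whereas Car4, a marker of a capillary subtype, rose by 1.18 ± 0.09. Cdh5 was at the threshold (limma adjusted p = 0.049) and passed in 8 of the 15 settings, with an adjusted p of 0.142 where the intensity trend was left out, while Tek and Car4 each passed in 13. Tie1 (-0.60 ± 0.10; adjusted p = 0.0541), Plvap (-0.98 ± 0.22) and Cldn5 (0.65 ± 0.16) did not pass. Among 12 genes of smooth muscle or pericytes, 11 did not pass and the contractile protein gene Cnn1 rose (0.96 ± 0.13; adjusted p = 0.0325), a call that held in 9 of the 15 settings. The share called among the 12 genes was 8.33%, against 3.10% of all genes. Their median was 0.15, 1 lay below the intron control medians, and their summed signal was 13.43 to 13.52 in WT and 13.72 to 13.73 in SCD arrays. The brightest gene, Postn, weighs most in the level of that sum (12.57 and 12.52 in WT, 12.64 and 12.65 in SCD), but it differed by only 0.10 ± 0.07. The next brightest, Acta2, stood at 10.94 and 11.25 in WT and at 11.82 and 11.84 in SCD. Acta2 was at 0.74 ± 0.13, Rgs5 at 0.90 ± 0.21 and Pdgfrb at -0.54 ± 0.11. The part of either cell type in the Npr1 values was not tested.

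**Figure D5:**
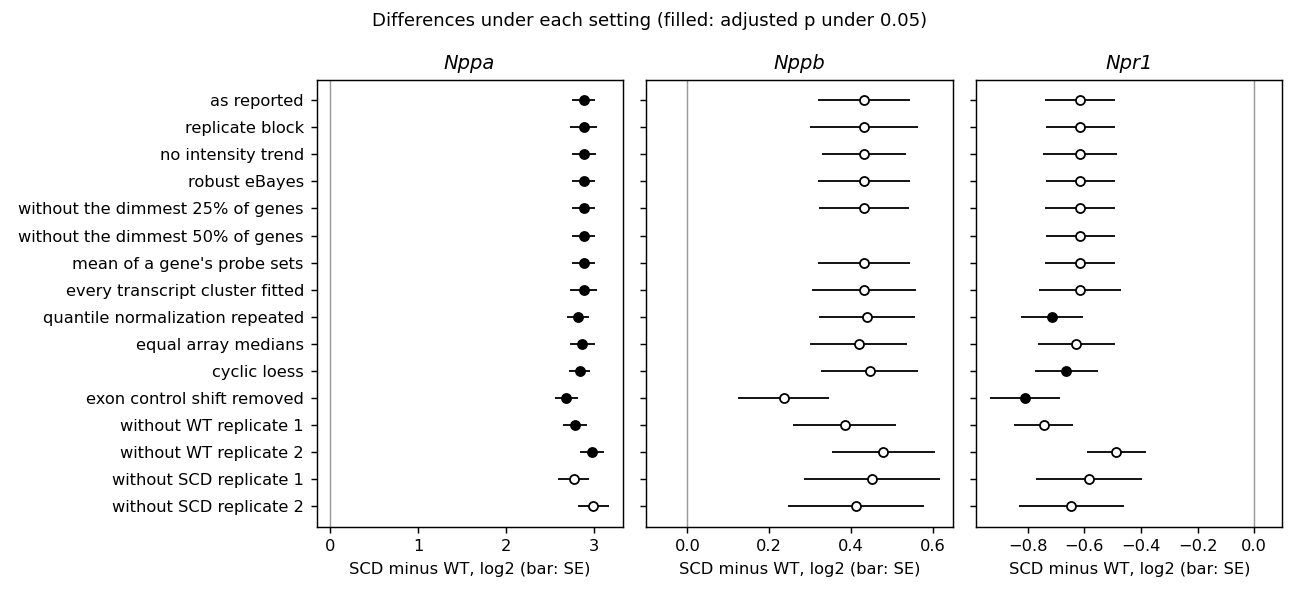
Difference SCD minus WT on the log2 scale (x axis, bars are SE) of Nppa, Nppb and Npr1 as reported and under each of 15 other settings (rows); filled points have an adjusted p under 0.05. Nppa stays between 2.68 and 2.99 and is open only without either SCD array, Nppb is open throughout and has no point where the dimmest 50% of genes were left out, and Npr1 is filled under 3 normalizations.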

How the data were processed

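Whole-lung RNA of 2 WT and 2 SCD mice was measured on 4 Affymetrix arrays. Extraction used TRIzol and labelling a 3' in vitro transcription kit, per the labels' protocols. The deposited values were read as log2 expression, from their range of 1.72 to 19.93; Affymetrix Expression Console, Partek and RMA are named in the submitters' processing notes, without versions, roles or order. Across genes the replicates correlated at 0.992 (WT) and 0.995 (SCD). RMA can pull dim values together, so that differences of dim genes may be understated, which was not tested here.

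Of 65956 transcript clusters, 31258 were annotated to 1 gene after symbols were updated through RefSeq (GRCm38.p6), which was also the source of the promoter sequences, matched by symbol for 7 of 7 genes. The probe set with the highest mean represented each of 30702 genes. No filter was applied. SCD was compared with WT across all genes with limma 3.58.1 in R 4.3.3 (lmFit, eBayes with intensity trend, group as the only term), two-sided, with Benjamini-Hochberg adjustment at 0.05. The code was tested on simulated data in which 200 of 30702 genes were changed. The test recovered 0.4% of changes of 1 on the log2 scale and 93.4% of changes of 2. The real data gave 952 calls, so these shares do not carry over directly. A gene that did not pass may still have changed by about 1 or less. No detection calls were used, and intron controls served as the yardstick for dim probe sets.

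The members, gene lists, motifs and rules were chosen with earlier results of these data known. Named were the 7 genes, up to 6 passing and up to 3 other genes of each list by p or size, 3 measured neighbours on either side of Nppb and Nppa, the 10 profiles nearest to Nppa, and fixed processing and cGMP genes; a few that the rule names are not printed. Alternatives were the replicate block, no trend, robust eBayes, 2 filters, other probe set choices, 4 normalizations and each array left out. The replicate numbers pair no animals by the labels.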

Additional observations from a re-analysis of the deposited data

How the results depend on the processing

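The limma calls rest on 2 arrays per group, which limits the precision of every value. Of the 7 genes, 3 (Nppb, Nppc and Corin) lie below the intron control medians in both groups, where small changes may not be measurable. The median of all genes lies below them too (5.88 in WT and 5.89 in SCD arrays). Nppa kept its direction in all 15 settings and passed in 13, with values from 2.68 to 2.88 where all arrays were used and from 2.77 to 2.99 with 1 array left out; it did not pass without SCD replicate 1 (2.77) or SCD replicate 2 (2.99), settings in which no gene passed. The count of the 7 genes called higher ranged from 0 to 1 with 1 array left out, and the count called lower was 1 (Npr1) under repeated quantile normalization (-0.71), cyclic loess (-0.66) and removal of the exon control shift (-0.81). Values near 0 changed sign: Nppc without the exon control shift (-0.17) and, in the range of 1 array left out, from -0.12 to 0.18; Npr3 without that shift (-0.10); and Npr2 with 1 array left out, from -0.21 to 0.077. Removal of the exon control shift, 0.20 higher in SCD arrays, moved the median of all genes to -0.19.

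Over all genes, 757 were called higher and 195 lower. The lower count was 114 without the intensity trend, 321 without the dimmest 50% of genes, 365 with every transcript cluster fitted, 347 with quantile normalization and 573 without the exon control shift; with 1 array left out the counts ranged from 0 to 643 higher and from 0 to 143 lower. Of all calls, 79.5% were higher, but 64.4% with quantile normalization and 47.8% without the exon control shift. Of listed pathway and marker genes, 12 were higher and 11 lower. These counts were 7 and 6 without the trend and 6 and 7 with every cluster fitted, the higher count was 5 without the exon control shift, and the lower count was 19 with quantile normalization, 18 with cyclic loess and 23 without the exon control shift; with 1 array left out they ranged from 0 to 9 each. The cause of these moves was not tested. With the replicate block, 780 genes were higher and 193 lower, Nppa had an adjusted p of 0.0049 and Npr1 of 0.0826; the deviations of same-numbered arrays correlated at -0.0022 across genes, so that nothing in the data ties the numbers, and the block changed no call among the 7 genes.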

Other observations

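Lists of other cell types of the lung also held genes that passed. The shares called were 40% of the adipocyte, 27.3% of the fibroblast and 20% of the mesothelial genes, against 3.10% of all genes. These lists are short, with 5, 11 and 5 measured genes. Of 5 measured adipocyte genes, 2 fell, 0 rose and 3 did not pass: Adipoq, the adiponectin gene, fell by 1.33 ± 0.14 and Fabp4, a fatty acid binding protein gene that capillary endothelium also expresses, by 1.22 ± 0.10, with Cidec at -0.56 ± 0.20. Adipocytes are known to express natriuretic peptide receptors. The summed signal of the 5 adipocyte genes was 10.45 to 10.65 in WT and 9.43 to 9.48 in SCD arrays, and 2 of the 5 lay below the intron control medians. The brightest gene, Fabp4, weighs most in that sum (9.67 and 9.77 in WT, 8.54 and 8.45 in SCD). Of 11 fibroblast genes, the fibronectin gene Fn1 rose by 0.94 ± 0.07, while the collagen genes Col3a1 and Col1a1 fell by 1.11 ± 0.10 and 0.64 ± 0.10, and 8 did not pass, Col1a2 (-0.62 ± 0.11) among them. Col1a1 was near the threshold (limma adjusted p = 0.0463) and passed in 8 of the 15 alternative settings, Fn1 and Col3a1 in 13 each. Of 5 mesothelial genes, Upk3b fell by 1.03 ± 0.11 (limma adjusted p = 0.0141) and 4 did not pass, with Lrrn4 at -0.67 ± 0.14.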
